A study of Mus musculus with 16 samples.

Results

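The genes described here encode the proteins of the mitochondrial ribosome under the symbols Mrpl and Mrps. They were chosen by name alone, as symbols of the form Mrpl or Mrps plus a number and an optional letter a, b or c that were listed in all 16 libraries. The rule found 76 genes, 47 with large-subunit and 29 with small-subunit symbols, among 26595 features of one experiment and 36930 of the other. All 76 were above the lowest listed value in at least 2 libraries, so all were used.

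Mitochondria keep a small genome of their own, and its protein-coding genes specify core subunits of the respiratory chain. The mitochondrial ribosome translates these few messages, but its proteins are encoded in the nucleus, made in the cytosol and imported. The small subunit reads the messenger RNA and the large subunit joins the amino acids. Compared with the bacterial ribosome it carries less RNA and many added proteins. Blood-forming stem cells are known for a low rate of respiration, whereas leukemic stem cells of chronic myeloid leukemia (CML) have been described as more dependent on it.

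RNA was sequenced from bone marrow cells of mice 8 weeks after birth that had been purified by fluorescence-activated cell sorting. In the CD93 experiment, LSCs (leukemic stem cells) came from recipients with CML that began from LSK cells (Lineage-negative, Sca-1-positive, Kit-positive stem and progenitor cells) carrying the BCR-ABL1 oncogene with GFP. The donor LSK cells were CD93-/- in KO LSC (3 libraries) and BL/6 wild type in WT LSC (3 libraries), and both were put into syngeneic BL/6 recipients that had not been irradiated. Naive LSK cells without the oncogene came from CD93-/- mice in KO LSK (2 libraries) and from BL/6 mice in WT LSK (2 libraries). CD93 is a surface receptor of early blood cells and endothelium. In the drug experiment the same BL/6 model was treated with MCP at 10 mg/kg in MCP LSC (3 libraries) or with vehicle in Veh LSC (3 libraries). MCP is metoclopramide per the series title, an antiemetic that blocks dopamine receptors. The strain is given as C57BL/6 except for the CD93-/- libraries, which carry no strain entry. All LSC groups share the oncogene, so it is compared only where LSCs are set against naive LSK cells. The recipients, not being irradiated, kept their own blood formation. The labels do not say whether libraries are separate animals, so that the p-values below measure only the spread between libraries.

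Values are taken as RPKM, reads scaled to gene length and to the mapped reads of the library, and a gene without signal is listed at 0.003 in the CD93 experiment and at 0.001 in the drug experiment. The experiments were normalised separately and are not compared with each other. Differences are on the log2(RPKM + 1) scale from limma. The p-values carry a Benjamini-Hochberg adjustment across the 13485 and 14005 features tested, and a difference was called below 0.05.

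Several libraries stood apart or went against their labels. The libraries labelled KO LSC held 2967, 2310 and 1230 features with signal, against 7956, 6867 and 5525 in WT LSC and 14279 to 14906 in the 4 LSK libraries. Cd93 itself was listed at 0.003, 44.3 and 0.003 RPKM in the libraries labelled KO LSC 1, 2 and 3, against 0.003, 0.003 and 5.74 RPKM in WT LSC, so the library labelled KO LSC 2 went against its label. It had 1.01 and 2.10 RPKM in KO LSK, against 5.34 and 22.9 RPKM in WT LSK. Ly6a (Sca-1) and Kit, which define the LSK gate, summed to 0 to 1.83 RPKM in KO LSC and 1.02 to 22.2 RPKM in WT LSC, against 553 to 640 RPKM in KO LSK and 718 to 890 RPKM in WT LSK. The stem cell markers Procr, Esam, Hlf and Mecom were each without signal in the 6 LSC libraries of that experiment. The 8 neutrophil markers summed to 31522 to 55005 RPKM in KO LSC and 63606 to 109521 RPKM in WT LSC, against 2683 to 4385 RPKM in KO LSK and 1966 to 5624 RPKM in WT LSK. The 7 macrophage markers summed to 13487 to 31330 RPKM in KO LSC and 11285 to 24040 RPKM in WT LSC, against 3779 to 4582 RPKM in KO LSK and 1773 to 3206 RPKM in WT LSK. In the drug experiment Ly6a and Kit summed to 73.6 to 85.9 RPKM in MCP LSC and 86.2 to 101 RPKM in Veh LSC. The spacing of low values gave rough depths of 2760000 to 3270000 reads in WT LSC, against 5410000 to 7730000 reads in the LSK libraries, and none for KO LSC or the drug libraries. The part of these cell markers, of depth and of low detection in the results below was not tested.

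The 76 genes were all annotated as protein-coding in GENCODE (GRCm38) and lay on 17 chromosomes, with 10 on chromosome 11. Of the subunit proteins, 29 of the large subunit and 16 of the small subunit have counterparts in bacterial ribosomes, and 20 and 10 are specific to mitochondria. Mrps18a and Mrps30, counted with the large subunit, carry small-subunit symbols by history. Mrps36 is now known as a component of the alpha-ketoglutarate dehydrogenase complex. Exons of 32 members overlapped an exon of another gene, and since the strand of the counting is not given, reads of such pairs cannot be told apart.

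Upstream sequences were taken from RefSeq (GRCm38.p6) for the 67 members that matched. The gene starts used are those of RefSeq and can differ from the GENCODE positions given elsewhere. In GENCODE, Mrps24 runs from 5703983 to 5715680 on chromosome 11, so its window below lies within that gene. The 250 bases before the gene start were searched on both strands for the letters CGCATGC of nuclear respiratory factor 1 (NRF1), CCGGAAG of the ETS family (which includes NRF2, also called GABP) and CACGTG of the E-box bound by Myc, 3 factors known for control of mitochondrial genes. The NRF1 letters were in 8 members (11.9%), against 3.79% of 17492 protein-coding genes, the ETS letters in 15 (22.4%), against 9.15%, and the E-box letters in 5 (7.46%), against 6.65%. Any of the 3 stood in 25 members (37.3%), against 18.1% of all. The sequences that follow belong to 3 members called lower in KO LSC and to Mrpl52, which was called higher with MCP, and cover only bases outside annotated exons, 5′ to 3′ on the gene's strand, with motif letters in capitals.
Mrps24, chr11:5707702-5707951, minus strand: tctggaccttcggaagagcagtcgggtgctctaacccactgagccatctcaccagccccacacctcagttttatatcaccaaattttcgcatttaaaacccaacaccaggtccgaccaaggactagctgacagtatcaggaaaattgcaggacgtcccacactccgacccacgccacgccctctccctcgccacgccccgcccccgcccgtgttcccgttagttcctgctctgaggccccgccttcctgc
Mrps12, chr7:28741822-28741991, minus strand: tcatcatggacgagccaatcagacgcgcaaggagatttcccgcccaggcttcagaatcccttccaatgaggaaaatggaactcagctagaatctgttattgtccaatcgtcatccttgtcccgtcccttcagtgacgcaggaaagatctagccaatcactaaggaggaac
Mrps16, chr14:20393635-20393884, minus strand: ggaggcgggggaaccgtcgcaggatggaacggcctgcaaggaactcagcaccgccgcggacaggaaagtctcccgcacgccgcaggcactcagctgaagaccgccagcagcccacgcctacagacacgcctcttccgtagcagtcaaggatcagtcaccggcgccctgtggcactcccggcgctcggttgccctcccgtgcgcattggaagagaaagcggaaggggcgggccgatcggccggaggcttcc
Mrpl52, chr14:54426659-54426908, plus strand: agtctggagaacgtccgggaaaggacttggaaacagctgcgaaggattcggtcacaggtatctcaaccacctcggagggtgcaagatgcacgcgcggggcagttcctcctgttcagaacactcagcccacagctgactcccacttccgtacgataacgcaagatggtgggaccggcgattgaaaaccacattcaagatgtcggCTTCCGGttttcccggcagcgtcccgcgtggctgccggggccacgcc
The capitals in Mrpl52 are the ETS letters on the opposite strand, and none of the 3 motifs stood in the other 3 sequences, which says only that these letters are not in these windows. Mrps18c, the member called higher in KO LSC, held the E-box and the ETS letters within its 250 bases.

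All 76 members were above the lowest value in every LSK library and every library of the drug experiment, but not in the LSCs of the CD93 experiment. There, 31, 30 and 7 members were detected in the libraries labelled KO LSC 1, 2 and 3, and 68, 61 and 47 in WT LSC 1, 2 and 3. The groups did not overlap. As a background, 12832 features were above the lowest value in all 4 LSK libraries, and 22.0%, 17.2% and 8.88% of these were detected in KO LSC, against 58.7%, 50.5% and 41.3% in WT LSC. The members' own shares were 40.8%, 39.5% and 9.21% in KO LSC, against 89.5%, 80.3% and 61.8% in WT LSC, above that background in 5 of the 6 libraries and close to it in the library labelled KO LSC 3. That background was not matched for level. In the LSK libraries the members' median was 146 to 211 RPKM, against 11.2 to 15.5 RPKM over all features with signal. The part of level in the members' detection was not tested against matched features. Both subunits were thinned out, with 20, 20 and 5 of 47 large-subunit and 11, 10 and 2 of 29 small-subunit symbols detected in KO LSC, against 43, 40 and 30 and 25, 21 and 17 in WT LSC.

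**Figure D1:**
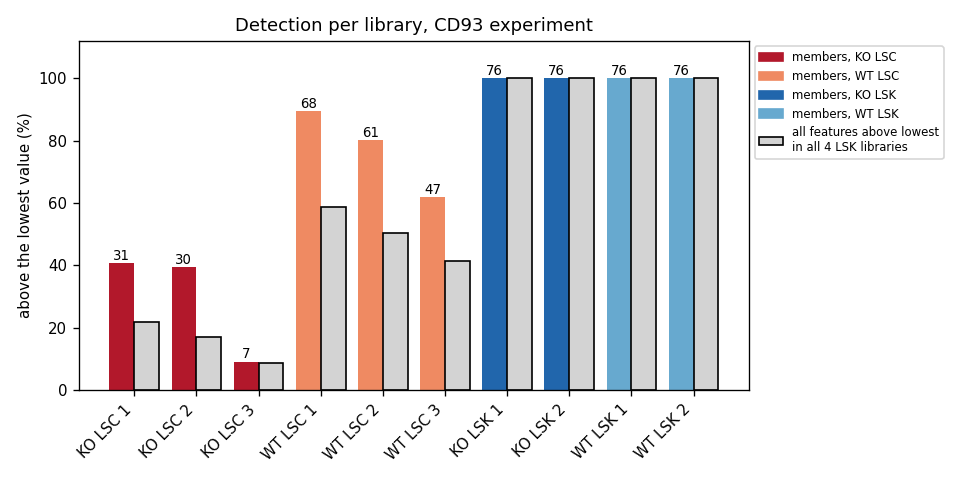
Share of genes above the lowest listed value in each library of the CD93 experiment (vertical axis, percent), as coloured bars for the 76 mitochondrial ribosomal protein genes, with their number on top, and grey bars for the 12832 features above the lowest value in all 4 LSK libraries. The KO LSC bars hold 31, 30 and 7 members and the WT LSC bars 68, 61 and 47, against 76 in each LSK library.

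The missing genes were not the same in each library. Only 4 members, Mrpl14, Mrpl23, Mrpl30 and Mrps18c, were detected in all 3 libraries labelled KO LSC, against 40 members in all 3 WT LSC libraries, and the same 4 were the members above the lowest value in all 16 libraries. At the other end, 32 members were at the lowest value in all 3 libraries labelled KO LSC, against 4 in WT LSC. Those 4, Mrpl10, Mrpl13, Mrps2 and Mrps10, had no signal in any of the 6 LSC libraries of the CD93 experiment, although Mrpl13 had 404 and 485 RPKM in KO LSK and 522 and 314 RPKM in WT LSK. No member was detected in a KO LSC library while missing from all WT LSC libraries. Detection in more of the 6 LSC libraries went with a higher level in naive cells, with a Spearman rho of 0.42 across the 76 members, which share libraries and are not independent. The 4 members found in no LSC library had a median WT LSK level of 62.9 RPKM, against 308 RPKM for the 13 members found in 5 of them.

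**Figure D2:**
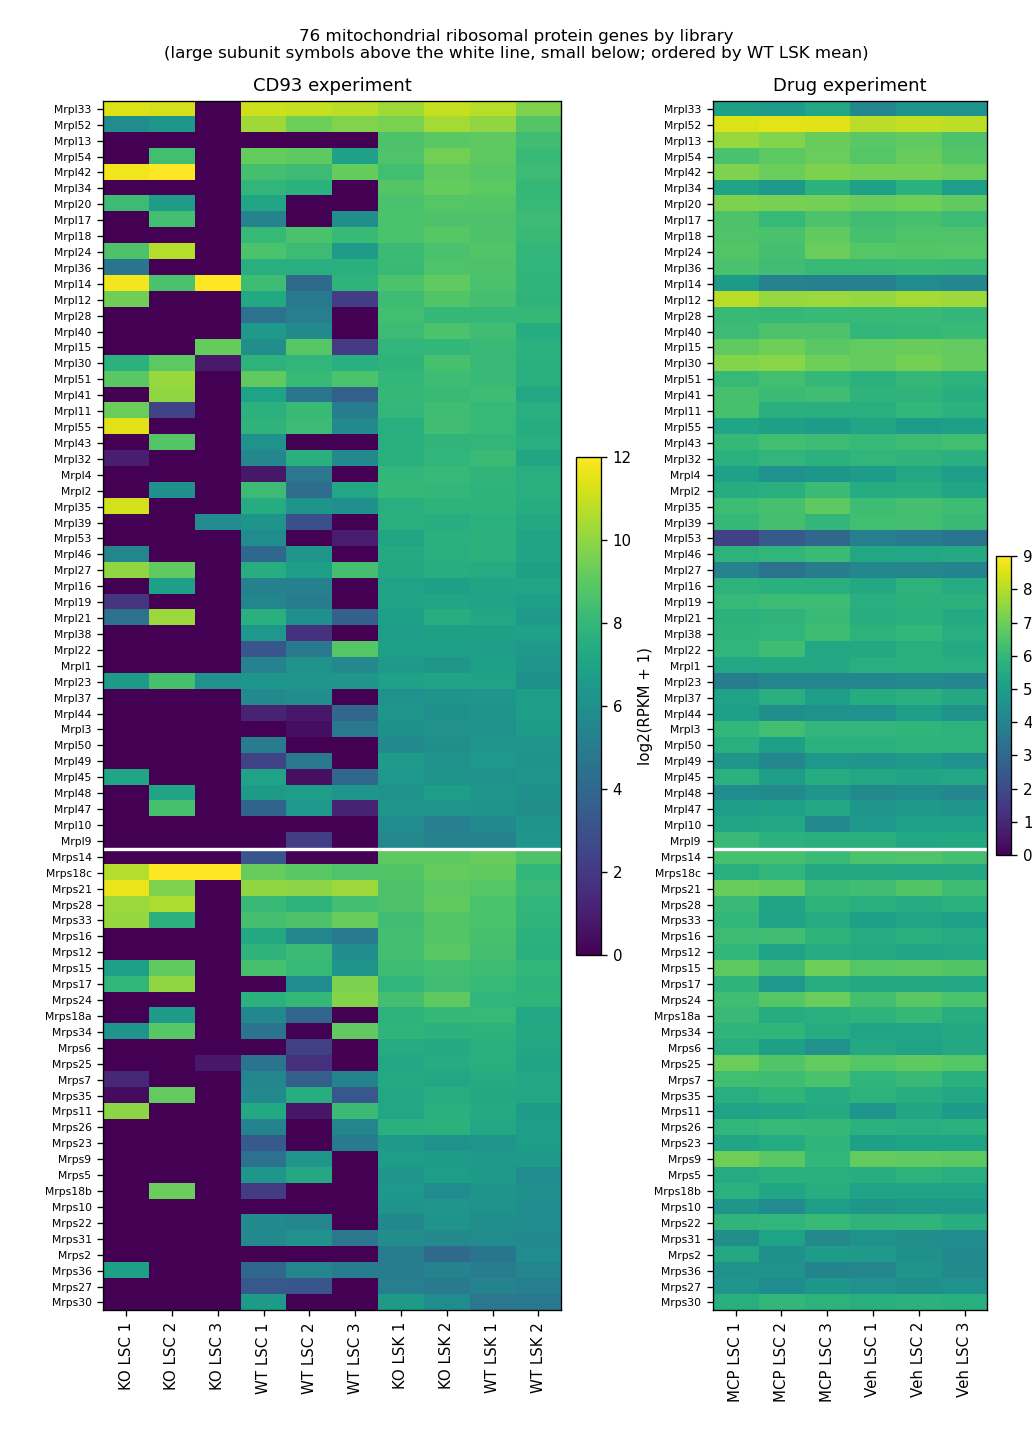
Level of each of the 76 members (rows, large-subunit symbols above the white line) in each library (columns), as log2(RPKM + 1) in colour, with the CD93 experiment at left and the drug experiment at right on separate colour scales. Dark cells in the KO LSC and WT LSC columns are members at the lowest value, 69 of 76 in the library labelled KO LSC 3, and the LSK, MCP and Veh columns have none.

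The 5 highest members held 57.1% and 60.0% of the members' summed RPKM in the libraries labelled KO LSC 1 and 2, against 42.7%, 42.1% and 47.6% in WT LSC. In the LSK libraries that share was 17.9% to 24.2%. The share moves with the number of members detected, and the library labelled KO LSC 3, with 7 detected, is left out of it. The summed level itself was 27399, 28325 and 11055 RPKM in KO LSC, against 13198, 10857 and 11566 RPKM in WT LSC. The members' profiles correlated between libraries of a group with Pearson's r of 0.19 to 0.50 in KO LSC and 0.51 to 0.62 in WT LSC, across genes on the log2 scale. In the LSK groups r was 0.97 in KO and 0.95 in WT.

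In naive WT LSK cells the highest members by group mean were Mrpl33, Mrpl52, Mrps14, Mrpl13 and Mrpl54. Mrpl33, a small protein of the large subunit that is also known from bacteria, had 1702 and 810 RPKM in WT LSK 1 and 2. The lowest were Mrps30, Mrps27 and Mrps36, and Mrps30 had 26.2 and 26.6 RPKM. The library WT LSK 2 was below WT LSK 1 in the members' median, 146 against 211 RPKM. In Veh LSC the highest were Mrpl52, Mrpl12, Mrpl42, Mrpl30 and Mrpl20, with Mrpl52 at 270, 289 and 275 RPKM. Mrpl12, which sits in the stalk that binds translation factors and has also been reported to bind the mitochondrial RNA polymerase, had 188, 219 and 206 RPKM in Veh LSC. The lowest there were Mrpl53, Mrpl27 and Mrpl14, and Mrpl53 had 13.4, 11.9 and 10.0 RPKM.

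The loss of CD93 in leukemic cells was addressed by setting KO LSC against WT LSC. Of the 76 members 1 rose and 10 fell at an adjusted p below 0.05. The background was 0.0742% of all tested features higher and 8.74% lower, against 1.32% and 13.2% of the members. Differences were above 0 in 8 members and below 0 in 65, against 15.6% and 67.7% of all features. Through rounding in the fit, the 65 include Mrpl10 or Mrpl13, both at 0.003 in all 6 of these libraries. The shares of all features may include such cases too. The members' median difference was -2.21, against -0.77 over all tested features, with medians of -1.98 for large-subunit and -2.30 for small-subunit symbols. The gap between the 2 medians depended on the features tested. With only the compared groups in the model it was -2.56 against -2.43, and with features averaging at least 5 RPKM it was -2.21 against -1.61. In these bulk samples, fewer cells of a type and less RNA per cell cannot be told apart.

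Mrps18c, 1 of 3 proteins related to bacterial S18 and the one thought to hold that place in the small subunit, was the member that rose. It had 1609, 4941 and 5619 RPKM in KO LSC 1, 2 and 3, against 591, 483 and 410 RPKM in WT LSC. Every library labelled KO LSC lay above every WT LSC library, with a log2 difference of 2.86 (SE 0.60, limma adjusted p = 0.0227). The median of all features with signal was higher in KO LSC too. It was 65.4, 127 and 144 RPKM there, against 16.4, 19.5 and 31.7 RPKM in WT LSC. The part of this in the values of Mrps18c was not tested. The call held without KO LSC 1 (adjusted p = 0.00476). It was lost without the library labelled KO LSC 2 (adjusted p = 0.0655) and without KO LSC 3 (0.0565). It was also lost without WT LSC 1, 2 or 3 (0.0536, 0.0624 and 0.0549), with a replicate block (0.075) and with library weights. The gene lies on chromosome 5 from 100798627 to 100804471 (GRCm38, plus strand), with exons that overlap Gm43511. It was also higher in KO LSC than in KO LSK, where it had 431 and 577 RPKM (log2 difference 2.83, SE 0.68, adjusted p = 0.00754).

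Its relatives Mrps18b and Mrps18a did not pass the test. Mrps18b, which also sits in the small subunit, had 603 RPKM in the library labelled KO LSC 2 and was at 0.003 in the other 2, against 3.39, 0.003 and 0.003 RPKM in WT LSC (adjusted p = 0.641). Mrps18a, the relative that sits in the large subunit, had 92.8 RPKM in the library labelled KO LSC 2 and was at 0.003 in the other 2, against 47.1, 14.2 and 0.003 RPKM in WT LSC (adjusted p = 1). Whether the relatives differ from Mrps18c was not tested. Mrpl14, a large-subunit protein next to the subunit interface, had 3591, 371 and 4742 RPKM in KO LSC, against 310, 16.7 and 226 RPKM in WT LSC. Its groups did not overlap either, but the difference did not pass the test (4.10, SE 1.35, adjusted p = 0.146). Members whose groups did not overlap numbered 2 upward (2.63%, background 0.564%) and 12 downward (15.8%, background 14.1%).

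Of the 10 members that fell, 7 were at 0.003 RPKM in every library labelled KO LSC and in no WT LSC library, so that no fold is given. They were Mrpl1, Mrpl18, Mrpl22, Mrps12, Mrps16, Mrps24 and Mrps31. Mrpl18, which binds 5S RNA in other ribosomes, had 266, 379 and 282 RPKM in WT LSC (adjusted p = 0.000498). Mrps24 had 199, 255 and 882 RPKM in WT LSC (adjusted p = 0.000548). Mrps12, the counterpart of the bacterial protein that guards decoding accuracy, had 224, 286 and 58.0 RPKM in WT LSC (adjusted p = 0.00101). Mrpl18 lies on chromosome 17 from 12911349 to 12916345 (minus strand) with exons overlapping Tcp1, and Mrps24 overlaps Urgcp. None of the 3 genes had signal in KO LSC, and each WT LSC library held all 3.

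Mrpl1, at the stalk where transfer RNA leaves, had 39.1, 68.7 and 49.4 RPKM in WT LSC (adjusted p = 0.000568). Mrps31, specific to mitochondria, had 53.3, 66.1 and 26.2 RPKM there (adjusted p = 0.000656). Mrps16, whose bacterial counterpart acts in assembly of the small subunit, had 156, 47.5 and 28.7 RPKM (adjusted p = 0.00223). These 3 genes were at lower levels in WT LSC than Mrpl18, but present in each library. Mrpl22 had 8.34, 27.1 and 461 RPKM (adjusted p = 0.0351) and is the least even of these. Its call was lost without WT LSC 2, without any 1 of the KO LSC libraries, with only the compared groups and under quantile normalization. That of Mrps16 was lost with library weights. Mrpl44, which has a ribonuclease fold, was at 0.003 in every KO LSC library as well, against 1.29, 0.729 and 14.5 RPKM in WT LSC, but did not pass. In all these genes, a group at the lowest value throughout has no spread of its own, and the fit takes the spread from the other groups.

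The other 3 members that fell were detected in 1 library labelled KO LSC. Mrpl36, a very small protein of the large subunit, had 24.2, 0.003 and 0.003 RPKM in KO LSC, against 190, 183 and 197 RPKM in WT LSC (log2 difference -6.02, SE 1.28, adjusted p = 0.0235). Mrpl32, which is matured by the m-AAA protease before it enters the ribosome, had 0.983, 0.003 and 0.003 RPKM in KO LSC, against 45.9, 194 and 53.1 RPKM in WT LSC (adjusted p = 0.00238). Mrps7 had 1.52, 0.003 and 0.003 RPKM in KO LSC, against 44.0, 11.5 and 41.9 RPKM in WT LSC (adjusted p = 0.0074). All 3 genes were below WT LSC in every KO LSC library. The call of Mrpl36 was lost without WT LSC 1 or 2 and without KO LSC 2 or 3, with only the compared groups and with library weights. Those of Mrpl32 and Mrps7 were lost with library weights and under quantile normalization. Leaving out 1 library gave 9 to 14 members lower, except for 20 without WT LSC 3, the WT LSC library with the lowest detection, and the count was 14 without the library labelled KO LSC 2 and 9 without KO LSC 3. Members called higher numbered 2 without KO LSC 3 and 0 without each WT LSC library. The shares of all tested features called in these fits are not given here, so the counts have no background. The median was -2.78 without KO LSC 2 and -1.25 without KO LSC 3, against -0.80 and -0.55 over all tested features. Mrpl18, Mrps24, Mrpl1, Mrps31 and Mrps12 passed in all 13 alternatives run.

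**Figure D3:**
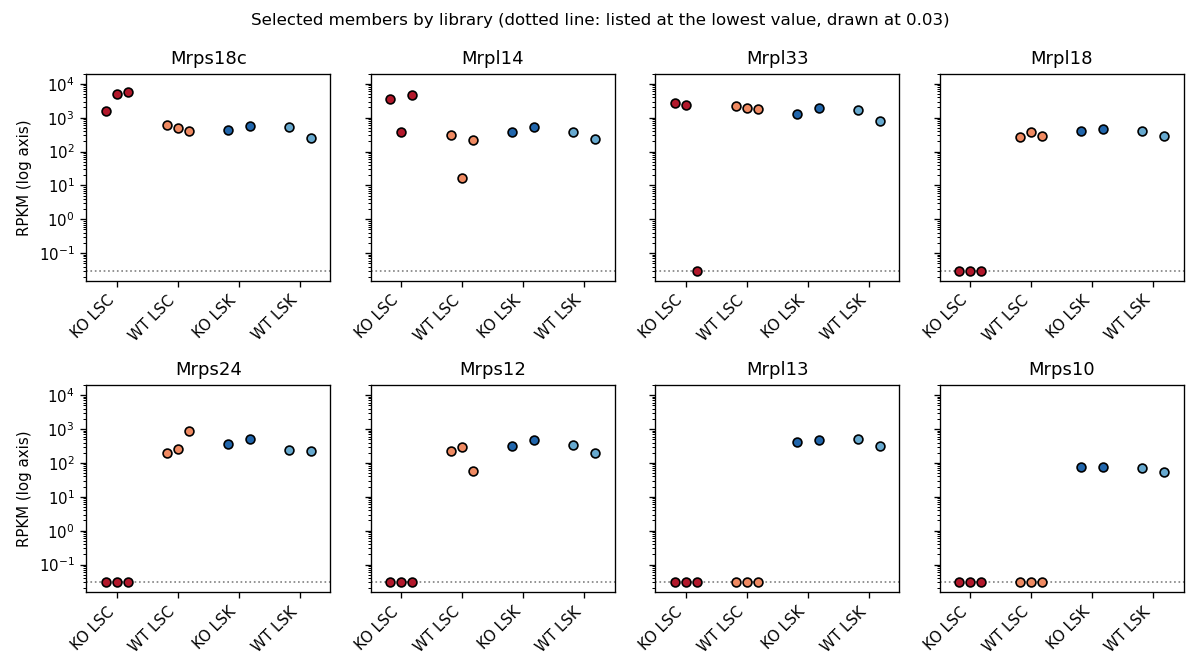
RPKM of 8 members in each library of the CD93 experiment on a log axis, 1 point per library, with libraries at 0.003 drawn on the dotted line. Mrps18c is at 1609 to 5619 RPKM in KO LSC and 410 to 591 RPKM in WT LSC, and Mrpl18, Mrps24 and Mrps12 are on the dotted line in KO LSC and above it in WT LSC.

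Other genes of mitochondrial translation were looked at by lists. Of 6 mitochondrial ribosomal proteins under other names, Gadd45gip1, a large-subunit protein, fell, with 0.003, 0.003 and 0.553 RPKM in KO LSC, against 841, 317 and 795 RPKM in WT LSC (adjusted p = 0.000498). Of 14 translation factors and regulators 3 fell, Guf1, Slirp and Gfm1, and Guf1, a GTPase related to bacterial LepA, was at 0.003 in all KO LSC libraries, against 80.8, 70.4 and 73.0 RPKM in WT LSC (adjusted p = 0.000498). Gfm1, an elongation factor, passed in 1 of the 6 fits without 1 library, the fit without WT LSC 2. A single gene fell in each of 4 lists, 21 assembly factors (Rbfa, adjusted p = 0.0191), 17 mitochondrial aminoacyl-tRNA synthetases (Iars2, adjusted p = 0.00297), 8 regulators of mitochondrial biogenesis (Yy1, adjusted p = 0.000498) and 13 mitochondrially encoded respiratory genes (mt-Atp8, adjusted p = 0.0404). None of the 8 genes of mitochondrial DNA transcription and replication passed, and no gene of these lists rose. The call of mt-Atp8 was lost without any 1 of the WT LSC libraries and without KO LSC 2, and that of Rbfa without WT LSC 1 or KO LSC 3. The median difference was -4.60 over the 6 other-named subunits, -1.62 over the assembly factors and -0.58 over the 13 mitochondrially encoded genes, against -0.77 over all tested features.

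In naive cells, KO LSK was set against WT LSK. No member passed the limma test in either direction, against 0.816% of all tested features higher and 1.02% lower, and 0 members had an unadjusted p below 0.05, against 3.2% of all features higher and 5.49% lower. Differences were above 0 in 59 of 76 members (77.6%) and below 0 in 17, against 42.5% and 57.5% of all tested features. The members' median difference was 0.20, against -0.11 over all. That sign rests on WT LSK 2: without it the median was -0.016. The order of the members was nearly the same in both groups, with a Spearman rho of 0.98 between their means across 76 genes.

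The members with the smallest p-values were Mrps2, Mrpl10, Mrps24, Mrps30 and Mrps10, each with an adjusted p of 1. Mrps30, the member with the largest positive difference here, had 92.7 and 56.2 RPKM in KO LSK, against 26.2 and 26.6 RPKM in WT LSK (log2 difference 1.42, SE 1.96). Mrps24 had 357 and 514 RPKM in KO LSK, against 240 and 231 RPKM in WT LSK (0.86, SE 0.95). In both genes the groups did not overlap, but the differences were within 1 standard error of 0. These standard errors carry the spread of the LSC libraries too, so they do not measure the LSK spread alone. In total 13 members did not overlap upward (17.1%, background 14.0%) and 5 downward (6.58%, background 20.5%). None of the lists of other mitochondrial translation genes had a gene that passed. Mrps12 had 326 and 487 RPKM in KO LSK, against 348 and 198 RPKM in WT LSK, and Mrps36 had 32.0 and 40.01 RPKM in KO LSK, against 32.3 and 43.3 RPKM in WT LSK.

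Leukemic and naive cells were compared within each genotype, starting with WT LSC against WT LSK. No member rose and 18 of 76 fell (23.7%), against 1.45% higher and 42.3% lower among all tested features, and 0 members were higher at an unadjusted p below 0.05 (background 2.22%). With only the compared groups in the model, a member was called higher. Differences were below 0 in 66 members and above 0 in 10, against 83.2% and 16.8% of all features. The members' median difference was -2.43, against -1.94 over all. That order turned without WT LSC 3 (-1.63 against -1.83) and with a pseudocount of 0.1 (-2.85 against -3.73). The 10 genes with large-subunit and 8 with small-subunit symbols that fell include the 4 found in no LSC library. Mrpl13 had no signal in WT LSC, being listed at 0.003, against 522 and 314 RPKM in WT LSK (adjusted p = 4.67e-06). Mrps10 was at 0.003 throughout as well, against 70.4 and 55.5 RPKM in WT LSK (adjusted p = 4.52e-06). Mrpl10, which carries the stalk proteins, and Mrps2 were also at 0.003 in WT LSC, against 51.3 and 74.3 RPKM and 24.8 and 55.3 RPKM in WT LSK (adjusted p = 4.71e-06 and 2.2e-05).

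Mrps14, among the highest members in naive cells, had 8.37, 0.003 and 0.003 RPKM in WT LSC, against 598 and 402 RPKM in WT LSK (log2 difference -7.86, SE 1.01, adjusted p = 0.00035). Mrps6 had 0.003, 3.87 and 0.003 RPKM in WT LSC, against 188 and 146 RPKM in WT LSK (-6.62, SE 0.74, adjusted p = 0.000152). Mrpl9, Mrpl4, Mrps25 and Mrpl53 fell, with log2 differences of -5.09, -5.84, -5.20 and -5.12 (adjusted p = 0.000532, 0.00642, 0.00828 and 0.0283). The call of Mrpl53 was lost without WT LSK 1 or 2 and without WT LSC 2 or 3, that of Mrps25 without WT LSK 1, and that of Mrpl4 with only the compared groups. Each of these 6 genes had every WT LSC library below both WT LSK libraries. Members with such a gap numbered 39 downward (51.3%, background 56.3%). The count of members that fell was 9 without WT LSK 1 and 10 without WT LSK 2. It was 15 to 20 without 1 of the WT LSC libraries. No background share is given for these fits.

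Also, 3 members lay above the naive cells in every WT LSC library (3.95%, background 6.29%), and are named after their values were seen. Mrps21, a small-subunit protein with a bacterial counterpart, had 1025, 952 and 1230 RPKM in WT LSC, against 462 and 268 RPKM in WT LSK. Mrpl33 had 2204, 1961 and 1752 RPKM in WT LSC, against 1702 and 810 RPKM in WT LSK. Mrpl51 had 545, 284 and 382 RPKM in WT LSC, against 271 and 183 RPKM in WT LSK. None of these 3 differences passed the limma test (adjusted p = 0.715, 0.88 and 0.847). Its spread also takes in the KO LSC libraries, which lie outside this comparison. In KO LSC 1, 2 and 3, Mrps21 had 3172, 808 and 0.003 RPKM and Mrpl33 had 2676, 2371 and 0.003 RPKM. Mrpl51 had 493, 1139 and 0.003 RPKM there. Of the 8 neutrophil markers 3 rose in the same comparison, as did 3 of the 7 macrophage markers, and their part was not tested.

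Genes outside the ribosome moved both ways in this comparison. Of 21 assembly factors 12 fell, among them Mrm3, Eral1, Ddx28 and Mtg1, which were all at 0.003 in WT LSC, and Tufm, the elongation factor that brings transfer RNA to the ribosome, was likewise without signal there, against 42.2 and 45.8 RPKM in WT LSK. Of 17 aminoacyl-tRNA synthetases 9 fell, and of 8 genes of mitochondrial DNA transcription and replication 5 fell, including Tfam, which packages mitochondrial DNA. Guf1 rose, with 80.8, 70.4 and 73.0 RPKM in WT LSC, against 21.3 and 21.5 RPKM in WT LSK (adjusted p = 0.0202), a call lost without either WT LSK library. Of 13 mitochondrially encoded respiratory genes 4 rose, mt-Nd1, mt-Nd4, mt-Atp6 and mt-Nd2. mt-Nd1 had 8892, 5007 and 7861 RPKM in WT LSC, against 1834 and 1111 RPKM in WT LSK (log2 difference 2.30, SE 0.55, adjusted p = 0.00954), and mt-Atp6 turned negative under quantile normalization (-0.47). All 4 calls were lost without WT LSK 2 and with library weights. That of mt-Nd2 was also lost without any 1 of the WT LSC libraries, and that of mt-Atp6 without WT LSC 1 or 3. The median difference over the 13 was 1.66, against -1.94 over all tested features, whereas the 6 other-named subunits had a median of -0.95.

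In KO LSC against KO LSK, Mrps18c rose and 39 of 76 members fell (51.3%), against 0.564% higher and 61.7% lower among all tested features. The members' median difference was -5.63, against -3.06 over all, and the share of members called lower was below that of all features. The gap between the medians depended on the features tested. With features averaging at least 5 RPKM it was -5.63 against -4.09. Differences were above 0 in 3 members (Mrps18c, Mrpl14 and Mrpl23) and below 0 in 73, against 4.4% and 95.5% of all features. Groups did not overlap upward in 1 member (background 1.22%) and downward in 46 (60.5%, background 75.2%). Of the 39, 22 had large-subunit and 17 small-subunit symbols, and 32 members in all were at 0.003 in every KO LSC library. Mrps14 was at 0.003 in KO LSC, against 524 and 513 RPKM in KO LSK (adjusted p = 0.000147). Mrpl34 was at 0.003 there too, against 442 and 575 RPKM in KO LSK (adjusted p = 0.00847). Mrpl13, Mrpl18, Mrps24, Mrps12, Mrps16, Mrpl40, Mrpl28 and Mrpl4 followed, all at 0.003 in KO LSC, against 243 to 514 RPKM in KO LSK. Without the library labelled KO LSC 2, 1 member was called higher and 50 lower, and without KO LSC 3 4 were called higher and 40 lower. Without KO LSK 1 or 2, 33 and 32 were called lower. No background share is given for these fits, so their counts are no result about the members alone. Of the other lists, 16 of 21 assembly factors, 10 of 14 translation factors and 14 of 17 aminoacyl-tRNA synthetases fell. Of 13 mitochondrially encoded respiratory genes 3 rose, mt-Cytb, mt-Co1 and mt-Nd2, and mt-Atp8 fell. The median difference over the 13 was 0.36, against -3.06 over all tested features. The 3 calls upward were lost without KO LSK 1, with library weights and under quantile normalization.

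The LSC-against-LSK difference in KO was then compared with that in WT by an interaction term, which uses the same libraries as the comparisons above. Cell markers and detection differed between these LSC and LSK libraries as well, and cannot be told apart from leukemia. For 7 members the leukemic-against-naive difference was lower in KO than in WT, and for none was it higher (background 5.15% lower and 0.934% higher; 1 member higher at an unadjusted p below 0.05, background 3.2%). They were Mrpl18, Mrps24, Mrpl1, Mrps31, Mrps12, Mrps16 and Mrpl32, of which 6 were at 0.003 in all KO LSC libraries. The members' median was -2.48, against -0.78 over all tested features. With features averaging at least 5 RPKM it was -2.48 against -1.47. The count was 17 without WT LSC 3 and 12 without KO LSC 1. It was 8 without the library labelled KO LSC 2, 7 without KO LSC 3, and 0 with a replicate block or library weights. No background share is given for these fits. The call of Mrpl32 was lost in 5 of the 10 fits without 1 library, those without WT LSK 2, KO LSK 1, KO LSK 2, KO LSC 2 or KO LSC 3, and that of Mrps16 in 2, those without WT LSK 2 or KO LSK 2. Gadd45gip1, Guf1 and Yy1 passed in the same direction (adjusted p = 0.00802, 0.00764 and 0.00764).

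**Figure D4:**
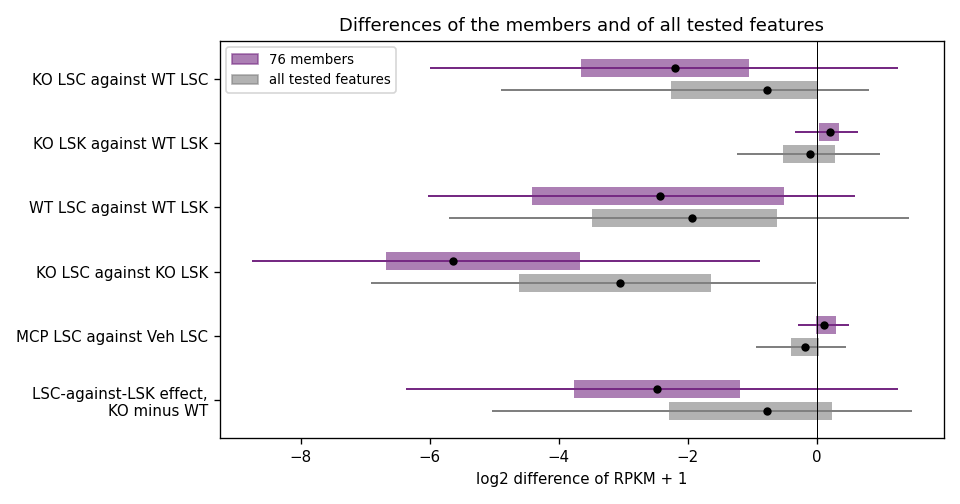
Log2 differences of RPKM + 1 (horizontal axis) of the 76 members (purple) and of all tested features (grey) in the 6 comparisons, with the median as a point, the middle 50% as a box and the 5th to 95th percentile as a line. In the fits drawn, the members' median was further below 0 than that of all features wherever LSCs of the CD93 experiment were compared. It was -2.21, against -0.77 over all, in KO LSC against WT LSC. In WT LSC against WT LSK it was -2.43, against -1.94 over all, an order that turned without WT LSC 3. The size of these gaps depended on the features tested. In MCP LSC against Veh LSC the members' median was 0.11, slightly above that of all features.

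The drug was addressed by MCP LSC against Veh LSC, where every member was detected in every library. Here 2 members rose and none fell, against 0.521% of all tested features higher and 1.8% lower, and 18 members (23.7%) were higher and 2 (2.63%) lower at an unadjusted p below 0.05, against 4.01% and 19.0% of all tested features. Differences were above 0 in 52 of 76 members (68.4%) and below 0 in 24, against 28.2% and 71.8% of all features. The members' median difference was 0.11, against -0.18 over all. Features with signal numbered 16447, 15587 and 15695 in MCP LSC, against 19554, 19839 and 20014 in Veh LSC. Their median was 7.66, 9.20 and 8.82 RPKM in MCP LSC, against 4.82, 4.79 and 4.755 RPKM in Veh LSC. The members' share of the summed RPKM overlapped, at 0.577%, 0.537% and 0.529% in MCP LSC, against 0.527%, 0.545% and 0.524% in Veh LSC. The part of these library-wide differences in the members' values was not tested. The order of the members kept a Spearman rho of 0.95 between the group means across 76 genes.

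Mrpl52, specific to the mitochondrial large subunit and the highest member in both groups, had 360, 392 and 382 RPKM in MCP LSC, against 270, 289 and 275 RPKM in Veh LSC. The groups did not overlap, and the log2 difference was 0.44 (SE 0.06, adjusted p = 0.0251). The gene lies on chromosome 14 from 54426909 to 54429756 (plus strand), and its exons overlap no other gene. Mrpl46, also specific to mitochondria and related to Nudix hydrolases, had 55.7, 59.6 and 69.4 RPKM in MCP LSC, against 39.9, 40.6 and 43.9 RPKM in Veh LSC (0.55, SE 0.11, adjusted p = 0.0487). Its exons overlap Mrps11, another member, which had 36.3, 37.7 and 44.0 RPKM in MCP LSC, against 25.4, 38.1 and 29.0 RPKM in Veh LSC. No member was called higher without Veh LSC 1, 2 or 3, or with a replicate block. Without MCP LSC 1, 2 or 3, the count was 4, 1 and 3. No background share is given for these fits.

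The next by p were 3 large-subunit genes. Mrpl33 had 34.0, 30.8 and 39.7 RPKM in MCP LSC, against 17.4, 23.9 and 23.2 RPKM in Veh LSC (0.68, SE 0.16, adjusted p = 0.0708). Mrpl41 had 82.5, 68.8 and 73.7 RPKM in MCP LSC, against 56.4, 57.2 and 47.5 RPKM in Veh LSC (0.48, SE 0.11, adjusted p = 0.0692). Mrpl19 had 63.5, 73.6 and 72.0 RPKM in MCP LSC, against 49.9, 53.8 and 54.1 RPKM in Veh LSC (0.40, SE 0.09, adjusted p = 0.0686). In all 3 genes the libraries did not overlap, yet none passed after adjustment.

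In total 18 members did not overlap upward (23.7%, background 4.91%) and 3 downward (3.95%, background 25.6%). The 3 were Mrpl1, Mrpl27 and Mrpl53, named after their values were seen. Mrpl53, the lowest member in both groups, had 2.32, 4.78 and 6.86 RPKM in MCP LSC, against 13.4, 11.9 and 10.0 RPKM in Veh LSC (log2 difference -1.25, SE 0.32, adjusted p = 0.0869). It had the largest difference of any member here, opposite in direction to most.

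The median difference was 0.10 over large-subunit and 0.13 over small-subunit symbols. Among the S18 relatives, Mrps18b had 52.6, 39.2 and 47.3 RPKM in MCP LSC, against 35.5, 35.6 and 35.0 RPKM in Veh LSC (0.37, SE 0.12, adjusted p = 0.135). Mrps18c had 49.2, 59.9 and 41.7 RPKM in MCP LSC, against 43.6, 40.7 and 42.2 RPKM in Veh LSC (0.23, SE 0.14, adjusted p = 0.345). Mrps18a, Mrpl12, Mrps12, Mrps30 and Mrps36 had differences of -0.03, 0.09, 0.20, 0.11 and 0.07, each with an adjusted p of 0.549 or more. The 4 members found in no LSC library of the CD93 experiment were detected in all 6 libraries here, with Mrpl13 at 194, 154 and 120 RPKM in MCP LSC, against 104, 110 and 88.7 RPKM in Veh LSC.

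**Figure D5:**
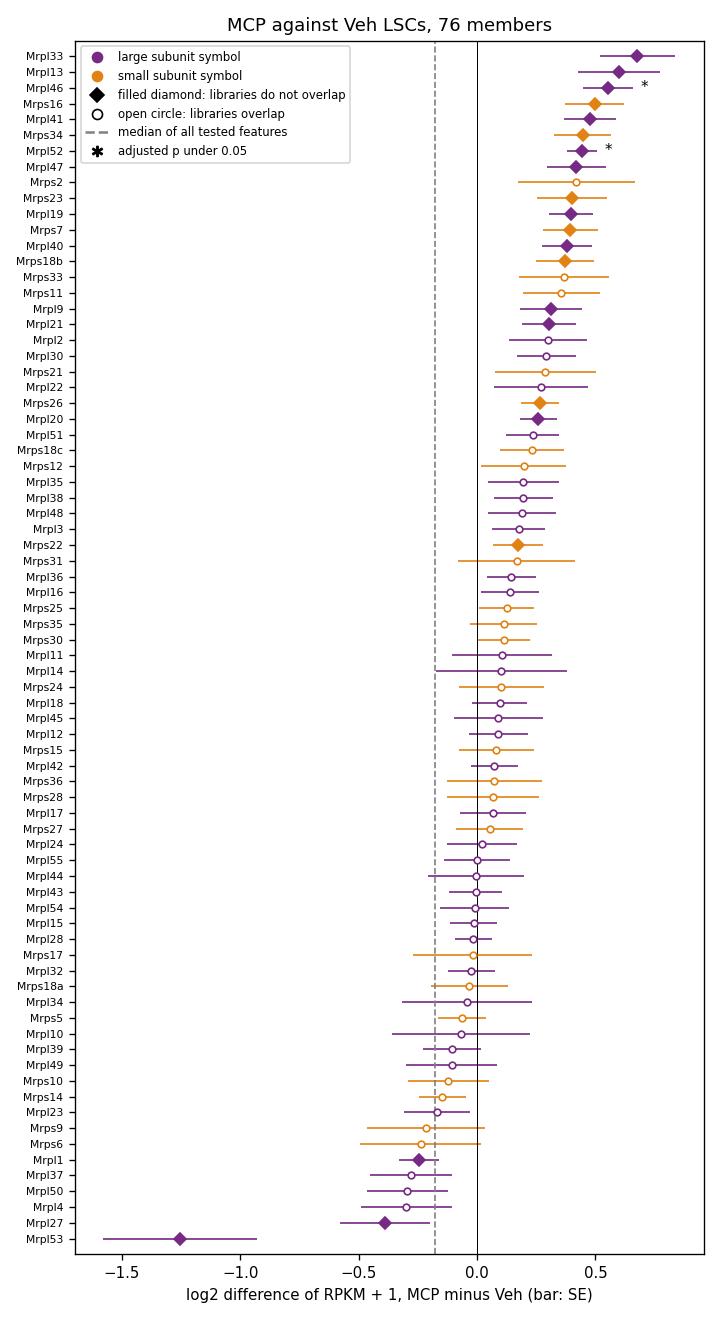
Log2 difference of RPKM + 1, MCP minus Veh (horizontal axis, bars are standard errors), of the 76 members in order of size, with filled diamonds where the libraries of the 2 groups do not overlap and a dashed line at the median of all tested features. Most members lie above 0, 52 of 76, and Mrpl53 stands alone at -1.25.

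Other genes of mitochondrial translation passed in few cases with MCP. None of the 6 other-named subunits, 21 assembly factors, 14 translation factors, 17 aminoacyl-tRNA synthetases or 8 genes of mitochondrial DNA transcription and replication did. Of 13 mitochondrially encoded genes mt-Atp8 and mt-Nd3 rose. mt-Atp8 had 3768, 3575 and 3546 RPKM in MCP LSC, against 2777, 2931 and 2817 RPKM in Veh LSC (0.35, SE 0.06, adjusted p = 0.0419), a difference that was -0.11 under quantile normalization. mt-Nd3 had 342, 360 and 354 RPKM in MCP LSC, against 252, 290 and 250 RPKM in Veh LSC (0.42, SE 0.08, adjusted p = 0.0423). Myc, which drives genes of ribosomes and mitochondria, fell, with 129, 135 and 163 RPKM in MCP LSC, against 203, 211 and 196 RPKM in Veh LSC (-0.52, SE 0.10, adjusted p = 0.0466). mt-Atp8 passed in none of the 6 fits without 1 library, mt-Nd3 passed only without Veh LSC 2 and Myc only without MCP LSC 3. Macrophage markers summed to 31.9 to 40.1 RPKM in MCP LSC, against 40.4 to 50.1 RPKM in Veh LSC. Of the 6 tested 1 was called lower. Apoe, the highest of them, overlapped, with 36.2, 28.2 and 36.4 RPKM in MCP LSC, against 29.8, 39.8 and 31.4 RPKM in Veh LSC. The neutrophil markers summed to 255 to 365 RPKM in MCP LSC, against 185 to 205 RPKM in Veh LSC. Of the 6 tested 1 was called higher and 0 lower, with a median difference of -0.06. S100a8 and S100a9 were higher in every MCP LSC library than in any Veh LSC library, whereas Ltf and Mmp8 were lower. Camp, Ngp and Lcn2 overlapped, and Retnlg had no signal. All 3 mast cell markers fell, and summed to 21.4 to 31.9 RPKM in MCP LSC, against 137 to 150.3 RPKM in Veh LSC. The stem cell gene Hlf fell, with 7.49, 7.36 and 7.87 RPKM in MCP LSC, against 20.3, 22.3 and 17.2 RPKM in Veh LSC (-1.28, SE 0.15, adjusted p = 0.0156). Procr, Esam and Mecom did not pass (adjusted p = 0.0963, 0.105 and 0.0518), though each was lower in every MCP LSC library than in any Veh LSC library. Mecom had 2.44, 4.58 and 2.04 RPKM in MCP LSC, against 8.99, 8.30 and 10.1 RPKM in Veh LSC. The part of these cell markers in the members' values was not tested.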

How the data were processed

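RNA-seq values per gene were read from the deposited files of the 16 libraries and joined by experiment. The labels name total RNA, the RNeasy Micro kit and the SMART-Seq v4 kit, and GRCm38 (mm10) stands in the submitters' processing notes; aligner and counter were not given in the sources used here. Deposited values are taken as RPKM made by the authors; the unit was inferred from the values. No counts are given and low values were within 0.1 of whole multiples of a common step in only 27.0% to 69.8% of cases, so reads were not recovered. The step, read from single-exon genes, gave rough depths for the LSK and WT LSC libraries, not for KO LSC or the drug libraries; no counting intervals are given. Titles set the groups; the source entry of the drug libraries reads LSK where their titles read LSC.

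Features reaching 1 RPKM in 2 or more libraries entered the test on log2(RPKM + 1) with limma 3.58.1 (R 4.3.3), with an intensity trend and 1 mean per group, in a model of the 10 CD93 libraries and another of the 6 drug libraries. The tests were two-sided, with Benjamini-Hochberg adjustment over all tested features and a threshold of 0.05. The steps were tested on simulated data. Python 3.11.15, pandas 2.3.3, numpy 2.4.6, scipy 1.17.1 and matplotlib 3.10.9 did the rest. Alternatives were quantile normalization, no filter, a mean of at least 5 RPKM, a pseudocount of 0.1, a replicate block, library weights, only the compared groups, and each library left out.

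The members, lists and naming rule were chosen with earlier results of these data known. Named are members that passed (up to 10 per direction by size, otherwise the 5 smallest p), Mrps18a, Mrps18b, Mrps18c, Mrpl12, Mrps12, Mrps36 and Mrps30 for their roles, the highest 5 and lowest 3 in WT LSK and Veh LSC, members in all libraries or missing from a whole group, and up to 4 genes per list. Others were chosen after their values were seen. Mrpl57 and Ict1 (Mrpl58) did not match the rule in all libraries. A further stem cell marker is not reported here.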

Additional observations from a re-analysis of the deposited data

Results flagged for a closer look

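For 7 members the leukemic-against-naive difference itself differed between genotypes by the interaction term of limma, KO minus WT, on the log2(RPKM + 1) scale. The difference of effects was -8.62 for Mrpl18 (SE 0.98, adjusted p = 0.00799), -9.33 for Mrps24 (SE 1.22, adjusted p = 0.00835) and -5.57 for Mrpl1 (SE 0.84, adjusted p = 0.0105). It was -5.62 for Mrps31 (SE 0.86, adjusted p = 0.0108) and -7.88 for Mrps12 (SE 1.27, adjusted p = 0.0125). It was -6.45 for Mrps16 (SE 1.25, adjusted p = 0.0244) and -6.11 for Mrpl32 (SE 1.27, adjusted p = 0.0315). All but Mrpl32 were at the lowest value in every KO LSC library, so their sizes depend on the added 1 RPKM and are no fold changes. None of the 7 passed with a replicate block or with library weights. Mrpl32 passed in 5 of the 10 fits without 1 library, Mrps16 in 8 and the other 5 members in all 10. Each of the 7 was above the lowest value in all 3 WT LSC libraries and all 4 LSK libraries.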

How the results depend on the processing

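Leaving out 1 library gave ranges as follows. The counts stand without the share of all tested features called in the same fit, so they are no result about the members alone. In KO LSC against WT LSC 0 to 2 members were higher and 9 to 20 lower, with medians of -2.84 to -1.25. In KO LSK against WT LSK the median ran over -0.016 to 0.40, and its sign turned without WT LSK 2. In WT LSC against WT LSK 9 to 20 members were lower, with medians of -2.90 to -1.63. In KO LSC against KO LSK 1 to 4 were higher and 32 to 50 lower, with medians of -6.13 to -5.00. In MCP LSC against Veh LSC 0 to 4 were higher, with medians of 0.087 to 0.18. In the interaction 5 to 17 were lower, with medians of -3.24 to -1.28.

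The deviations of same-numbered libraries from their group means correlated at -0.038 to 0.038, and at -0.28 in KO LSK against WT LSK, so they were not taken as pairs. With a replicate block, members higher were 0 in KO LSC against WT LSC and 0 in MCP LSC against Veh LSC, members lower in the interaction were 0, and the KO LSC against KO LSK median was -5.19. Crossing the LSK numbers, chosen after seeing the data, gave 5 features higher and 0 lower in all, with no member among them.

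With library weights, whose estimation gave a convergence warning, 0 members were higher and 6 lower in KO LSC against WT LSC, 0 were higher in KO LSC against KO LSK, 1 was higher with MCP and 0 were lower in the interaction. With only the compared groups, 1 member was higher and 9 lower in WT LSC against WT LSK. With no filter, and with a pseudocount of 0.1, 1 member was higher with MCP. That pseudocount gave medians of -3.92 in KO LSC against WT LSC, -8.07 in KO LSC against KO LSK and -4.17 in the interaction. Quantile normalization moved the median of all features to -0.50 in WT LSC against WT LSK, -1.14 in KO LSC against KO LSK and -0.03 with MCP. The members' medians were then -1.14, -3.81 and 0.21, and 9 members were lower in WT LSC against WT LSK. It turned the sign of Lrpprc (0.45), Gfm1 (0.41) and mt-Atp6 (-0.47) in WT LSC against WT LSK, Ppargc1a (2.40) in KO LSC against KO LSK and mt-Atp8 (-0.11) with MCP. Of the values of single genes, 1216 kept direction and side of the threshold, 209 lost the call, 1 gained it and 5 turned. The causes were not tested. Read totals are not given, so a gene at the lowest value is not shown to be absent.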
